A study of Mus musculus with 24 samples.

Results

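The endoplasmic reticulum chaperones were taken as 7 genes: Hspa5, Hsp90b1, Calr, Canx, Pdia3, Pdia4 and Pdia6. Their members were all probe sets annotated with exactly 1 gene symbol among these, which gave 17 probe sets for 7 of the 18193 genes with such a probe set. A probe set is a group of short probes on the array that together report 1 intensity. The arrays were 1-colour Affymetrix mouse expression arrays of total brain RNA, from a selection experiment on contextual fear conditioning that began with a cross of C57BL/6J and A/J, both inbred strains. There were 24 arrays in 4 groups of 6: amygdala from high freezing animals, amygdala from low freezing animals, hippocampus from high freezing animals and hippocampus from low freezing animals. All 4 groups thus share the mixed background of both parental strains, and none is a parental strain. Age, sex, the time of dissection and the behaviour of single animals are not given in the sources used here, and neither is the number of animals behind an array. The p-values therefore measure the spread between these arrays, which may be technical. Freezing is the immobility of a mouse that recognises the cage in which it was shocked, and the hippocampus and the amygdala are known to take part in that learning.

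Proteins that are secreted or sit in membranes are made at the endoplasmic reticulum, and the chaperones of that compartment hold them in a soluble state while they fold. Hspa5, also called BiP or GRP78, binds unfolded chains and keeps the stress sensors of the compartment inactive, and Hsp90b1 (GRP94) acts on its clients after it. Calr (calreticulin, soluble) and Canx (calnexin, anchored in the membrane) bind sugar chains of new glycoproteins, Pdia3 (ERp57) works with both of them to form disulfide bonds, and Pdia4 and Pdia6 are further disulfide isomerases. When unfolded protein builds up, the unfolded protein response raises transcription of these genes, in part through the ER stress response element of their promoters. In neurons the compartment also stores calcium, which calreticulin binds.

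That element is shown first, because it is what several of these genes are known to share in their promoters. It reads CCAAT, then 9 bases of any kind, then CCACG, and was searched on both strands from 250 bases before to 50 bases after each gene's annotated start (RefSeq, GRCm38.p6). It was found in 5 of 7 member promoters, against 39 of 32851 promoters (0.119%) in the whole table. The 6 matches are given 5′ to 3′ on the strand that carries them, with the fixed bases in capitals.
Hspa5: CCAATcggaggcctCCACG
Hsp90b1, first: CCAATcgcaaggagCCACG
Hsp90b1, second: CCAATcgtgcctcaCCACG
Calr: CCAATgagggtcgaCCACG
Canx: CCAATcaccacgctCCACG
Pdia6: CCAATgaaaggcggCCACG
Measured along the gene, the match began 65 bases before the start of Hspa5, 212 and 107 bases before that of Hsp90b1, 162 before that of Calr, 145 before that of Canx and 98 before that of Pdia6. The match of Calr and the second match of Hsp90b1 lay on the opposite strand. No match was found in this window of Pdia3 or Pdia4. A second form, ATTGG, 1 base of any kind and CCACG, was found in 0 of 7 member promoters and in 12 of 32851 promoters (0.0365%).

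The promoters of Hspa5, Calr and Pdia6, whose probe sets carry the freezing results below, are printed whole, with the fixed bases of the element in capitals. Hspa5 lies at chr2:34771840-34772139 on the plus strand, Calr at chr8:84846882-84847181 on the minus strand and Pdia6 at chr12:17266339-17266638 on the plus strand (GRCm38.p6), each written 5′ to 3′ on the strand of its gene.
Hspa5: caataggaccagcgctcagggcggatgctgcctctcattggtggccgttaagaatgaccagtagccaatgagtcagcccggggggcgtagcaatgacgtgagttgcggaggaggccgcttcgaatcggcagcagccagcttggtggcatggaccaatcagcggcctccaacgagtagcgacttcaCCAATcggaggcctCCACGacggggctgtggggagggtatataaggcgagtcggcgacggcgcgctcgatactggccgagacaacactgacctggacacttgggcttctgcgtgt
Calr: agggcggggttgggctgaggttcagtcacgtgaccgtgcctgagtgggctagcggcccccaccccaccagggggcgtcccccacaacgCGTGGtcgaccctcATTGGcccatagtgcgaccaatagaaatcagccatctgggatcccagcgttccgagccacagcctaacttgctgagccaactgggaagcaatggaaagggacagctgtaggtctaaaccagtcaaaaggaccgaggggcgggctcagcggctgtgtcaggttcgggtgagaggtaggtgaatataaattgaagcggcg
Pdia6: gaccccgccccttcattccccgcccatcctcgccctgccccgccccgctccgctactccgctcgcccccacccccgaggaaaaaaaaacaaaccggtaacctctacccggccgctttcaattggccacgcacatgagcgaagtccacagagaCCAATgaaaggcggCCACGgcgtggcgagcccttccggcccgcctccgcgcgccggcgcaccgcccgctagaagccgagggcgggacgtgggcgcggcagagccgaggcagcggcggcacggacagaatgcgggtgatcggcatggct
In Calr the element stands on the opposite strand, so its capitals read as the reverse complement. The other members lie on chromosomes 2 (Pdia3), 6 (Pdia4), 10 (Hsp90b1) and 11 (Canx). The arrays measured transcript levels and no factor at these promoters.

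Array medians lay between 36.9 and 43.6 intensity units. In the amygdala they were 41.4 to 43.6 on high freezing arrays and 39.5 to 43.1 on low freezing arrays, and in the hippocampus 37.6 to 41.6 on high freezing arrays and 36.9 to 38.8 on low freezing arrays. The 3′ to 5′ ratio of Gapdh, a measure of RNA integrity, lay between 0.736 and 0.896. Its median was 0.825 on high and 0.890 on low freezing amygdala arrays, and 0.789 on high and 0.832 on low freezing hippocampal arrays. The same ratio of actin lay between 1.52 and 2.10. Its median was 1.86 on high and 1.87 on low freezing amygdala arrays, and 1.79 on high and 1.83 on low freezing hippocampal arrays. The part of RNA integrity in the differences below was not tested. Region labels were checked with marker genes: all 5 dentate gyrus genes and all 5 forebrain excitatory neuron genes were lower in amygdala arrays than in hippocampal arrays, and all 6 genes of the central amygdala and striatum were higher. Among 5 markers of the hippocampal CA fields, 4 were lower in amygdala arrays, whereas Wfs1 was 1.27-fold higher. Of 3 basolateral amygdala markers, Otof was higher in amygdala arrays, whereas Rspo2 and Nr4a2 were lower. All 10 choroid plexus markers were higher in amygdala arrays, where their summed intensity was 14932 to 21926 on high freezing and 17274 to 20872 on low freezing arrays, against 2349 to 13658 on high freezing and 1958 to 12055 on low freezing hippocampal arrays.

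Of the 17 member probe sets, 16 passed the filter on dim probe sets. The exception was Pdia4 1450620_at, with a mean of 8.17 intensity units over the 24 arrays. Differences below are of log2(intensity + 16), which understates the change of dim probe sets, and were tested with limma over 27022 probe sets with Benjamini-Hochberg adjustment. A probe set counts as called at an adjusted p under 0.05. Probe sets bind with unequal strength, so no level of one is set against that of another. Endings of the names carry the maker's warning: _a_at probes match several transcripts of a gene, _s_at probes may match transcripts of more than one gene, and some probes of an _x_at set also match other sequences.

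Between high and low freezing animals, the chaperone calls ran in both directions. In whole dissected tissue, a change in the share of cells of one type and a change of RNA per cell cannot be told apart. Averaged over both regions, 5 of 16 probe sets passed the test: 4 were lower in high freezing animals (2 of Calr, 1 of Hspa5 and 1 of Pdia6) and 1, a dimmer probe set of Hspa5, was higher. Of all probe sets tested, 1.05% were called in this comparison, 0.511% as lower and 0.54% as higher. The median log2 difference of the 16 was -0.11, beside 0.01 for all probe sets. With only the brightest probe set of each gene, 2 of 7 genes passed, Hspa5 and Pdia6, both lower. In the amygdala alone, 1 of 16 probe sets passed (Calr, lower), where 0.0555% of all probe sets did. In the hippocampus alone, 0 of 16 passed in limma, where 0.0518% of all probe sets did. Unadjusted p was under 0.05 for 9 of the 16 in the amygdala, where it was for 10.7% of all probe sets, and for 7 of the 16 in the hippocampus, where it was for 11.8%. These ran in both directions. Canx 1422845_at, Hspa5 1447824_x_at and Pdia4 1416497_at were higher in high freezing amygdala. Hspa5 1447824_x_at and Hsp90b1 1415889_a_at were higher in high freezing hippocampus, and the rest were lower.

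**Figure D1:**
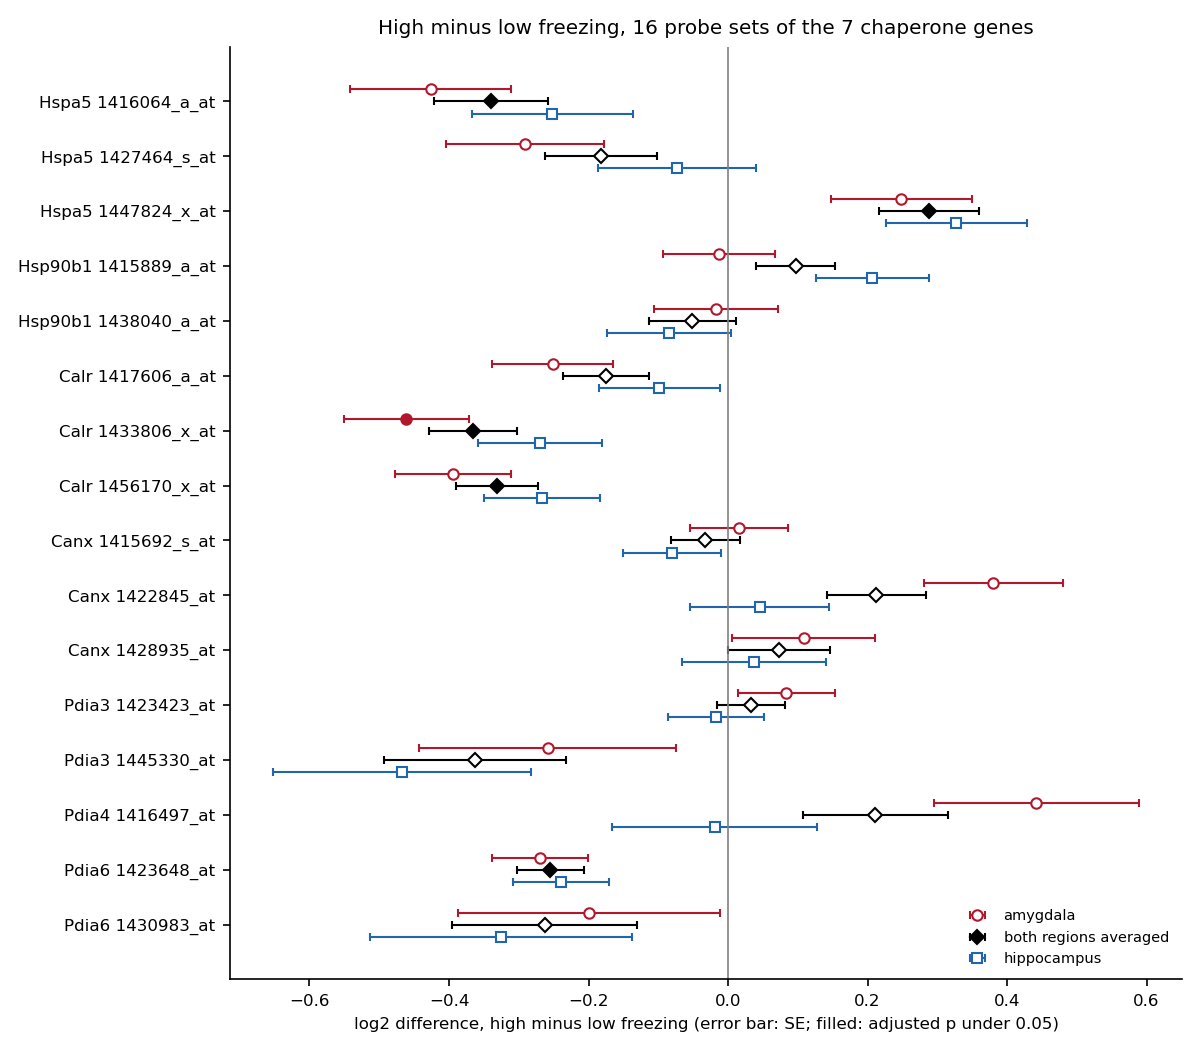
Log2 difference between high and low freezing animals (x axis) for the 16 probe sets of the 7 chaperone genes (rows), with circles for the amygdala, diamonds for both regions averaged and squares for the hippocampus. Error bars are standard errors, and filled symbols have an adjusted p under 0.05 in limma: 1 in the amygdala, 5 in the average and 0 in the hippocampus.

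Calr, calreticulin, was measured by 3 probe sets, and all 3 had negative differences in both regions. Probe set 1433806_x_at had a lowest, median and highest intensity of 672, 982 and 1053 in high freezing amygdala, against 1156, 1306 and 1444 in low freezing amygdala. Every high freezing amygdala array lay below every low freezing one. In the hippocampus it had 815, 882 and 1033 on high freezing arrays, against 899, 1121 and 1238 on low freezing arrays, and these ranges overlapped. The log2 difference was -0.46 ± 0.09 in the amygdala (1.38-fold lower in high freezing, limma adjusted p = 0.0369), -0.27 ± 0.09 in the hippocampus (adjusted p = 0.205) and -0.37 ± 0.06 averaged over both (1.29-fold lower, adjusted p = 0.0030; error SE throughout). The amygdala call was not stable to the removal of single arrays. It was lost without high freezing array 8, 9 or 11 or low freezing array 1, 3 or 5, with limma adjusted p from 0.0591 to 0.0989. In these removals the log2 difference ran from -0.48 (without high freezing array 8) to -0.37 (without high freezing array 11). The call was also lost when the amygdala was fitted alone (adjusted p = 0.131) or without the trend in the variance prior (0.0926). The averaged call held in every setting run.

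The second Calr probe set, 1456170_x_at, had a lowest, median and highest intensity of 886, 1078 and 1126 in high freezing amygdala, against 1101, 1365 and 1746 in low freezing amygdala. In the hippocampus these were 937, 969.6 and 1188 on high freezing arrays, against 1096, 1225 and 1304 on low freezing arrays. The ranges overlapped, but 4 of 6 high freezing arrays in the amygdala and 5 of 6 in the hippocampus lay below every low freezing array. Averaged over both regions it was 1.26-fold lower in high freezing animals (log2 -0.33 ± 0.06, limma adjusted p = 0.00397), a call kept in every setting run. In the amygdala alone the log2 difference of -0.39 ± 0.08 missed the threshold (adjusted p = 0.0618). It passed there with arrays centred on their median (0.0448) and without high freezing array 7 (0.0437) or 12 (0.0488) or low freezing array 4 (0.0108).

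The brightest Calr probe set, 1417606_a_at, shared the sign but not the call. It had a lowest, median and highest intensity of 1336, 1531 and 1691 in high freezing amygdala, against 1388, 1826 and 2243 in low freezing amygdala. In the hippocampus it had 1271, 1391 and 1658 on high freezing arrays, against 1322, 1539.8 and 1588 on low freezing arrays. The groups overlapped widely, and the averaged log2 difference was -0.17 ± 0.06 (limma adjusted p = 0.145).

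Hspa5 gave opposite answers at its probe sets. The brightest, 1416064_a_at, had a lowest, median and highest intensity of 2396, 2719 and 3014 in high freezing amygdala, against 2907, 3770.1 and 4277 in low freezing amygdala. In the hippocampus it had 1894, 2184 and 2497 on high freezing arrays, against 1952, 2604 and 3659 on low freezing arrays, where the low freezing arrays spread over most of the whole range. No high freezing amygdala array reached the median of the low freezing ones, and 4 of 6 lay below the lowest. Averaged over both regions it was 1.26-fold lower in high freezing animals (log2 -0.34 ± 0.08, limma adjusted p = 0.0365), with -0.43 ± 0.12 in the amygdala (adjusted p = 0.136) and -0.25 ± 0.12 in the hippocampus (0.391). The averaged call was close to the threshold. It was lost with quantile normalization (adjusted p = 0.0733), without the filter on dim probe sets (0.0541) and with a variance prior that had no trend (0.0737) or was robust (0.0531). It was also lost without any one of 12 arrays: high freezing amygdala 10, 11 or 12, low freezing amygdala 2, 3 or 5, high freezing hippocampus 7, 9 or 11, or low freezing hippocampus 2, 4 or 5 (0.0516 to 0.0627).

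Probe set 1427464_s_at of Hspa5 followed the brightest in sign, with an averaged log2 difference of -0.18 ± 0.08 that did not pass (limma adjusted p = 0.255). Its intensity was 979 to 1364 in high freezing amygdala, against 1179 to 1779.5 in low freezing amygdala, and 895 to 1181 on high freezing hippocampal arrays, against 830.1 to 1443 on low freezing ones. The dim probe set 1447824_x_at went the other way. Its lowest, median and highest intensities were 196, 218 and 293 in high freezing amygdala, against 168, 184 and 229.7 in low freezing amygdala, and 196, 233 and 278 on high freezing hippocampal arrays, against 148, 193 and 208 on low freezing ones. In both regions the high freezing median lay above the low freezing one, with overlapping ranges. In the hippocampus 5 of 6 high freezing arrays lay above every low freezing array, and in the amygdala 2 of 6 did. The averaged log2 difference was 0.29 ± 0.07 (1.22-fold higher in high freezing, limma adjusted p = 0.0418). This call was lost with arrays centred on their median (0.0561), without the filter on dim probe sets (0.0587), without the variance trend (0.0644) and with array weights (0.052). It was also lost without any one of 16 arrays: high freezing amygdala 10, 11 or 12, low freezing amygdala 1, 2, 3, 4 or 6, high freezing hippocampus 9, 10, 11 or 12, or low freezing hippocampus 1, 2, 3 or 5 (0.0526 to 0.0824).

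Pdia6, a disulfide isomerase that is also known to bind the stress sensor IRE1, was lower in high freezing animals in the average of both regions. Probe set 1423648_at had a lowest, median and highest intensity of 490.3, 546 and 561 in high freezing amygdala, against 582, 649 and 709 in low freezing amygdala, with no overlap. In the hippocampus it had 460.4, 484 and 631 on high freezing arrays, against 556, 609 and 659 on low freezing arrays, and 5 of 6 high freezing arrays lay below every low freezing array. It was 1.19-fold lower in high freezing animals averaged over both regions (log2 -0.25 ± 0.05, limma adjusted p = 0.0083), a call kept in every setting run, with -0.27 ± 0.07 in the amygdala (adjusted p = 0.117) and -0.24 ± 0.07 in the hippocampus (0.157). The dim probe set 1430983_at, at 10.4 to 55.1 intensity units over all arrays, had an averaged log2 difference of -0.26 ± 0.13 (adjusted p = 0.335).

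Freezing groups did not overlap in the amygdala for 2 of the 16 member probe sets, Calr 1433806_x_at and Pdia6 1423648_at, where 0.551% of all probe sets did not overlap. In the hippocampus 0 of the 16 were free of overlap, where 0.818% of all probe sets were.

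**Figure D2:**
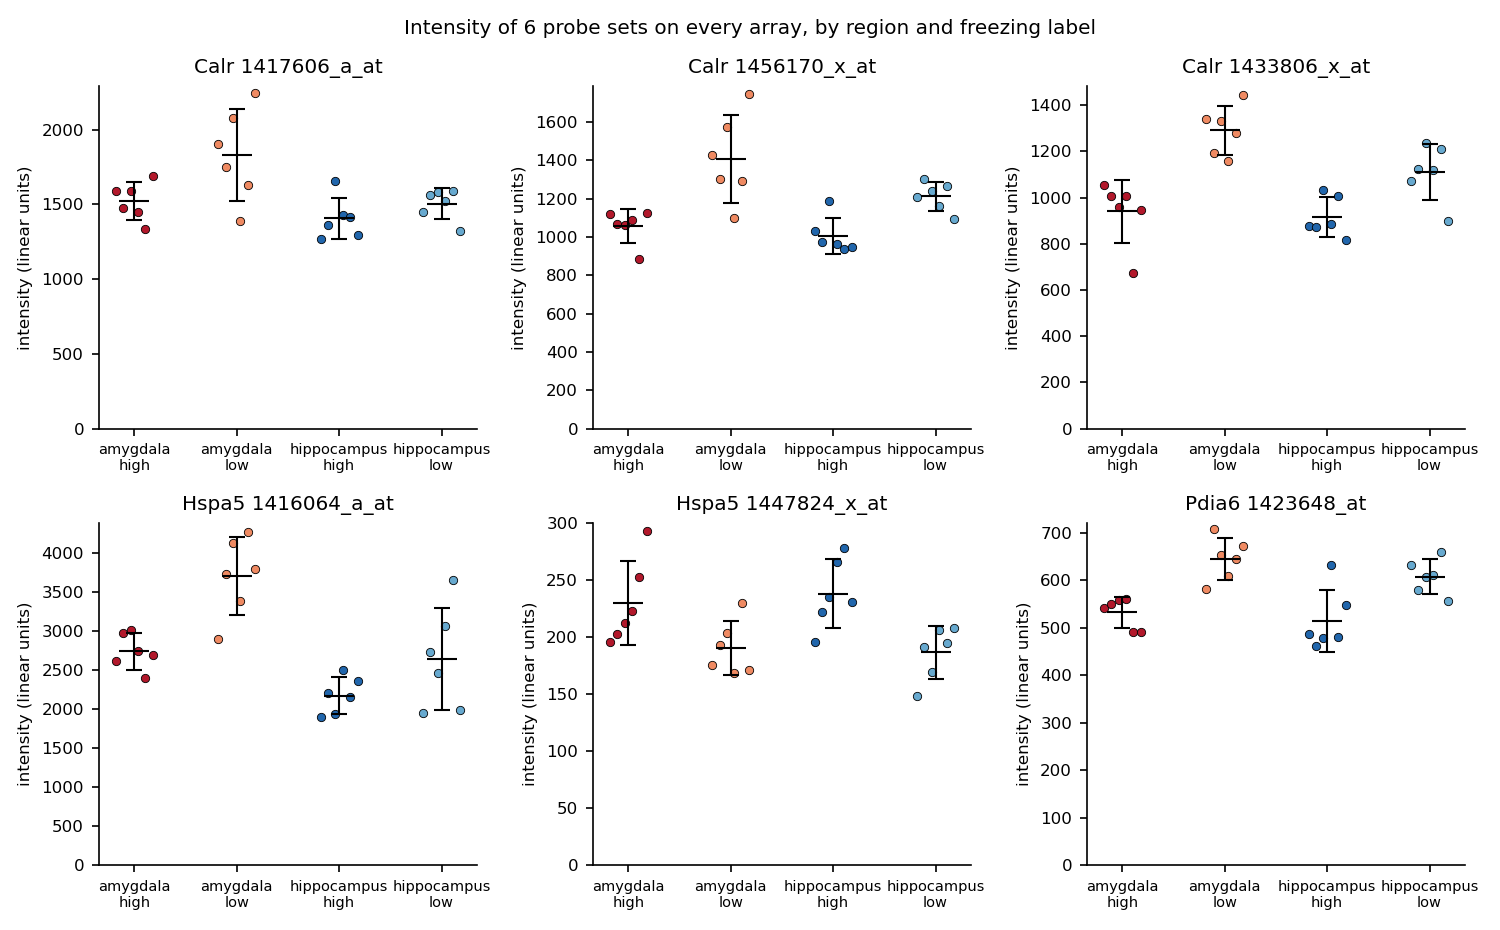
Linear intensity on every array (y axis, from 0) for 3 probe sets of Calr, 2 of Hspa5 and 1 of Pdia6, by region and freezing label (x axis); points are arrays and bars the mean and SD of 6. In the amygdala the high freezing arrays of Calr 1433806_x_at (672 to 1053) and Pdia6 1423648_at (490.3 to 561) lie below all low freezing arrays, and Hspa5 1447824_x_at runs opposite to Hspa5 1416064_a_at.

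The other members did not pass in a freezing comparison. Pdia4, an isomerase with more thioredoxin-like domains than Pdia3 or Pdia6, had at 1416497_at a lowest, median and highest intensity of 144, 158 and 206 in high freezing amygdala, against 80.5, 112 and 194 in low freezing amygdala. Its log2 difference there was 0.44 ± 0.15 (limma adjusted p = 0.247), and in the hippocampus it was -0.02 ± 0.15 (adjusted p = 0.977). Canx 1422845_at likewise had 447, 692 and 808 in high freezing amygdala, against 399.9, 519 and 586 in low freezing amygdala. That is a log2 difference of 0.38 ± 0.10 (adjusted p = 0.122), beside 0.05 ± 0.10 in the hippocampus (0.909), where the sign turned with arrays centred on their median. In the amygdala 5 of 6 high freezing arrays of this probe set lay above every low freezing array. Without high freezing amygdala array 7, Canx 1422845_at passed in the amygdala (0.49, adjusted p = 0.0122) and in the average (0.27, adjusted p = 0.0145).

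The bright calnexin probe set, 1415692_s_at, stood at 1911 to 2412 in high freezing amygdala, against 1961 to 2415 in low freezing amygdala, and its averaged log2 difference was -0.03 ± 0.05 (limma adjusted p = 0.811). The dimmest calnexin probe set, 1428935_at, had an averaged log2 difference of 0.07 ± 0.07 (adjusted p = 0.677), with 0.11 ± 0.10 in the amygdala (0.774) and 0.04 ± 0.10 in the hippocampus (0.930). Hsp90b1 had averaged differences of 0.10 ± 0.06 at 1415889_a_at (adjusted p = 0.423) and -0.05 ± 0.06 at 1438040_a_at (0.749). The first of these had 0.21 ± 0.08 in the hippocampus (adjusted p = 0.293) and -0.01 ± 0.08 in the amygdala (0.976). In the hippocampus all 6 of its high freezing arrays lay above the low freezing median, and 3 lay above the highest low freezing array. Pdia3 had averaged differences of 0.03 ± 0.05 at 1423423_at (0.801, where the sign turned with arrays centred on their median) and -0.36 ± 0.13 at the dim 1445330_at (0.156). For Hsp90b1, the bright calnexin probe set and the bright Pdia3 probe set, the freezing groups overlapped in both regions.

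The test of whether the freezing difference itself differed between amygdala and hippocampus called 0 of the 16 probe sets in limma, as it called 0% of all probe sets, with 1637 of them at an unadjusted p under 0.05. Among members, 2 had an unadjusted p under 0.05, and the smallest adjusted p was 0.817. The largest interaction was that of Pdia4 1416497_at, at 0.46 ± 0.21 on the log2 scale.

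Because probe sets of one gene disagreed, the within-array log2 ratio of each pair was compared between high and low freezing arrays, with an exact permutation test within each region (924 splits each), two-sided, over 12 pairs. This test was chosen after the values were seen. The freezing difference of Hspa5 1416064_a_at was below that of 1447824_x_at (averaged log2 ratio -0.63, adjusted p = 0.000112), and that of 1427464_s_at was also below it (-0.47, adjusted p = 0.000272). In the amygdala the exact p of both pairs was 0.00216, the smallest it can be. Within the concordant Hspa5 pair the difference was smaller, at -0.16 (adjusted p = 0.0053). For Calr, the difference of the brightest probe set was closer to 0 than that of 1456170_x_at (averaged ratio 0.16, adjusted p = 0.000272) and that of 1433806_x_at (0.19, adjusted p = 0.00294). The remaining pairs that passed were Canx 1415692_s_at against 1422845_at (-0.25, adjusted p = 0.012) and the Pdia3 pair (0.40, adjusted p = 0.0186). In all, 7 of 12 pairs passed, and the same number passed with quantile normalization and with offsets of 1 and 64. What each probe set hybridised to was not tested.

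Agreement from array to array was measured as the correlation of deviations from the group mean, over the 12 arrays of a region, with 100000 permutations within groups and adjustment over 24 relations. Of these, 22 were positive, and 6 passed by Pearson's r and 4 by Spearman's rho. The Hspa5 pair 1416064_a_at and 1427464_s_at agreed in the amygdala (r = 0.867, adjusted permutation p = 0.0051; rho = 0.727, 0.074; r = 0.696 without the 2 arrays farthest from the median) and in the hippocampus (r = 0.890, adjusted permutation p = 0.0096; rho = 0.874, 0.0222; r = 0.828 without the 2 farthest). The third Hspa5 probe set, 1447824_x_at, had r between 0.210 and 0.460 with the others, and no relation of it passed. Without the 2 farthest arrays, its r with 1427464_s_at was 0.644 in the amygdala and 0.715 in the hippocampus. With 1416064_a_at it was then 0.333 in the amygdala and 0.258 in the hippocampus. Probe sets of Calr had r from 0.607 to 0.953: the pair 1417606_a_at and 1456170_x_at had r = 0.953 in the amygdala (adjusted permutation p = 0.00168; rho = 0.909, 0.00816; 0.882 without the 2 farthest). In the hippocampus that pair had r = 0.753 (adjusted permutation p = 0.0664; rho = 0.643, 0.114), which fell to 0.315 without the 2 farthest arrays. Hsp90b1, Canx, Pdia3 and Pdia6 had no pair that passed. The Hsp90b1 pair had r = 0.0245 in the amygdala and 0.167 in the hippocampus. Without the 2 farthest arrays these were 0.0102 and 0.782. The Pdia6 pair had negative r in the amygdala (-0.395, adjusted permutation p = 0.421; rho = -0.559, 0.211). In the hippocampus its r was 0.229, which became -0.199 without the 2 farthest arrays.

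Between different members, the brightest probe sets gave 42 relations over both regions, 36 of them positive (20 of 21 in the amygdala with a median r of 0.473, and 16 of 21 in the hippocampus with a median of 0.278). None passed the adjusted permutation test by Pearson's r or Spearman's rho, and the smallest adjusted p was 0.0504. The 2 relations named next had that value. Calr with Pdia4 in the hippocampus had r = 0.838 (rho = 0.783, adjusted permutation p = 0.109; r = 0.749 without the 2 farthest arrays), and Pdia3 with Pdia4 in the amygdala had r = 0.744 (rho = 0.685, 0.162; r = 0.523 without the 2 farthest). Hspa5 with Pdia4 in the amygdala had r = 0.772 (adjusted permutation p = 0.127; rho = 0.713, 0.162; r = 0.790 without the 2 farthest), and Calr with Pdia4 there had r = 0.105. In the hippocampus, Canx had negative r with Calr (-0.534, adjusted permutation p = 0.278), Pdia4 (-0.378), Pdia3 (-0.231) and Hspa5 (-0.227). Its r there was positive with Pdia6 (0.385) and Hsp90b1 (0.0936).

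The genes with deviations most like those of Hspa5 1416064_a_at over the 24 arrays, among 12461 other genes at their brightest probe set, were Gimap8 (r = 0.817), Sdf2l1 (0.814), Xbp1 (0.810), Tex10 (0.756) and Chordc1 (0.756). Sdf2l1 encodes a protein of the endoplasmic reticulum, Xbp1 a transcription factor of the unfolded protein response, Gimap8 a GTPase known from lymphocytes and Chordc1 a partner of cytosolic Hsp90. These are descriptions of shared variation over arrays with common scaling, and 3 of the 5 stayed among the top 5 with quantile normalization. Of other listed genes, Manf, which binds Hspa5, stood at rank 9 (r = 0.720) and Herpud1, which serves degradation, at rank 39 (0.641), both named after their values were seen. The lists as a whole were spread widely, down to Ssr4 at rank 11878 (-0.425) and Stim1 at rank 12003 (-0.450). Among the stress sensors, Eif2ak3 had r = 0.175, Atf6 0.164 and Ern1 -0.187. For the mean of the 7 members the nearest were Chordc1 (0.770), Hnrnpu (0.768), Cct4 (0.766), P4ha1 (0.765) and Hnrnph1 (0.760). Gimap8 was dim, at 34.0 to 55.1 in high freezing amygdala and 23.7 to 42.1 in low freezing amygdala.

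**Figure D3:**
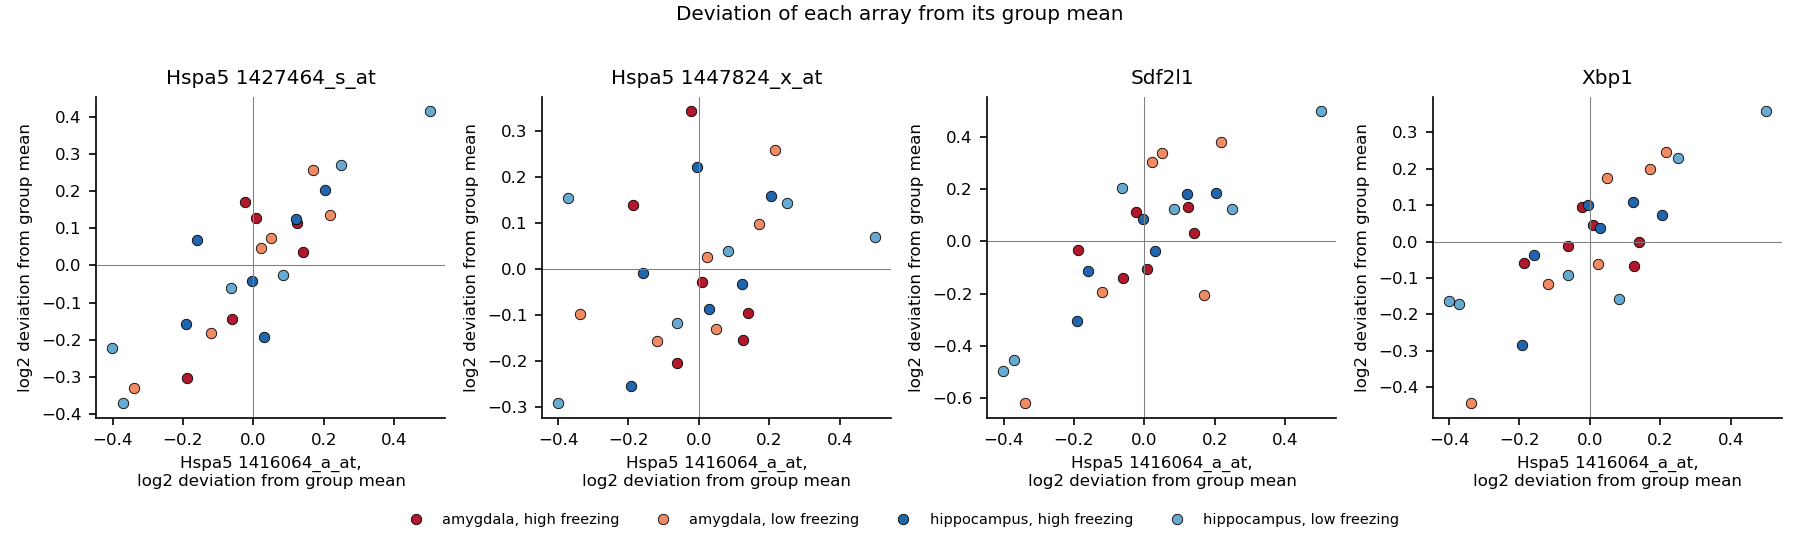
Deviation of each array from its group mean on the log2 scale, with the brightest Hspa5 probe set on the x axis and, on the y axes, its other 2 probe sets, Sdf2l1 and Xbp1; points are the 24 arrays, coloured by group. Probe set 1427464_s_at, Sdf2l1 (r = 0.814) and Xbp1 (r = 0.810) rise with the brightest probe set, whereas 1447824_x_at has r of 0.210 in the amygdala and 0.460 in the hippocampus.

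Between amygdala and hippocampus, every chaperone call ran the same way. Of the 16 probe sets, 9 were higher in the amygdala and 0 lower, where 51.2% of all probe sets were called and 27.1% were higher. The members' median log2 difference was 0.17, beside 0.02 for all probe sets. At the brightest probe set, 6 of 7 genes were higher in the amygdala, with Pdia6 the exception (0.07 ± 0.05, limma adjusted p = 0.251; the sign turned with arrays centred on their median). With arrays centred on their median, 5 of the 9 calls remained: both of Hspa5, both of Hsp90b1 and Canx 1428935_at. Calr 1417606_a_at, Canx 1415692_s_at, Pdia3 1423423_at and Pdia4 1416497_at kept their sign there but not their call (adjusted p = 0.133, 0.150, 0.166 and 0.127). No member probe set separated the 12 amygdala arrays from the 12 hippocampal arrays without overlap.

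Hspa5 had the largest regional log2 difference among the 16 probe sets. Probe set 1416064_a_at had a lowest, median and highest intensity of 2396, 2998 and 4277 over 12 amygdala arrays, against 1894, 2284 and 3659 over 12 hippocampal arrays. It was 1.34-fold higher in the amygdala (log2 0.42 ± 0.08, limma adjusted p = 7.37e-05), and 1427464_s_at was 1.27-fold higher (0.35 ± 0.08, adjusted p = 0.000553). The third, 1447824_x_at, had -0.01 ± 0.07 (adjusted p = 0.907). Hsp90b1 was higher at both probe sets. Its probe set 1438040_a_at had 773, 863 and 1077 in the amygdala, against 518, 702 and 774 in the hippocampus, and 11 of 12 amygdala arrays lay above every hippocampal array (1.30-fold, log2 0.37 ± 0.06, adjusted p = 1.02e-05). Probe set 1415889_a_at was 1.18-fold higher (0.24 ± 0.06, adjusted p = 0.000684).

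The lectin chaperones and isomerases were also higher in the amygdala at some of their probe sets. Canx was 1.13-fold higher in the amygdala at 1415692_s_at (log2 0.17 ± 0.05, limma adjusted p = 0.00496) and 1.22-fold higher at 1428935_at (0.29 ± 0.07, adjusted p = 0.00154), beside -0.04 ± 0.07 at 1422845_at (0.694). Calr was 1.14-fold higher at 1417606_a_at (0.19 ± 0.06, adjusted p = 0.0102), and its 2 other probe sets had 0.13 ± 0.06 and 0.12 ± 0.06 without passing (0.0564 and 0.105). The first of these, 1456170_x_at, passed with quantile normalization (0.018) and without high freezing amygdala array 11, low freezing amygdala array 2, 4 or 5, high freezing hippocampal array 9 or low freezing hippocampal array 2 (0.0103 to 0.0495). The other, 1433806_x_at, passed without high freezing amygdala array 11 (0.00774). The dim probe sets Pdia3 1445330_at and Pdia6 1430983_at had -0.18 ± 0.13 and 0.02 ± 0.13 without passing (limma adjusted p = 0.271 and 0.901). Pdia3 1423423_at was 1.12-fold higher (0.16 ± 0.05, adjusted p = 0.00714), and Pdia4 1416497_at was 1.20-fold higher (0.26 ± 0.10, adjusted p = 0.0385), a call also lost with quantile normalization (0.0799), without the filter (0.0562) and without any one of 9 arrays: high freezing amygdala 8 or 9, low freezing amygdala 5 or 6, high freezing hippocampus 7, 8, 10 or 12, or low freezing hippocampus 6 (0.0513 to 0.0828).

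**Figure D4:**
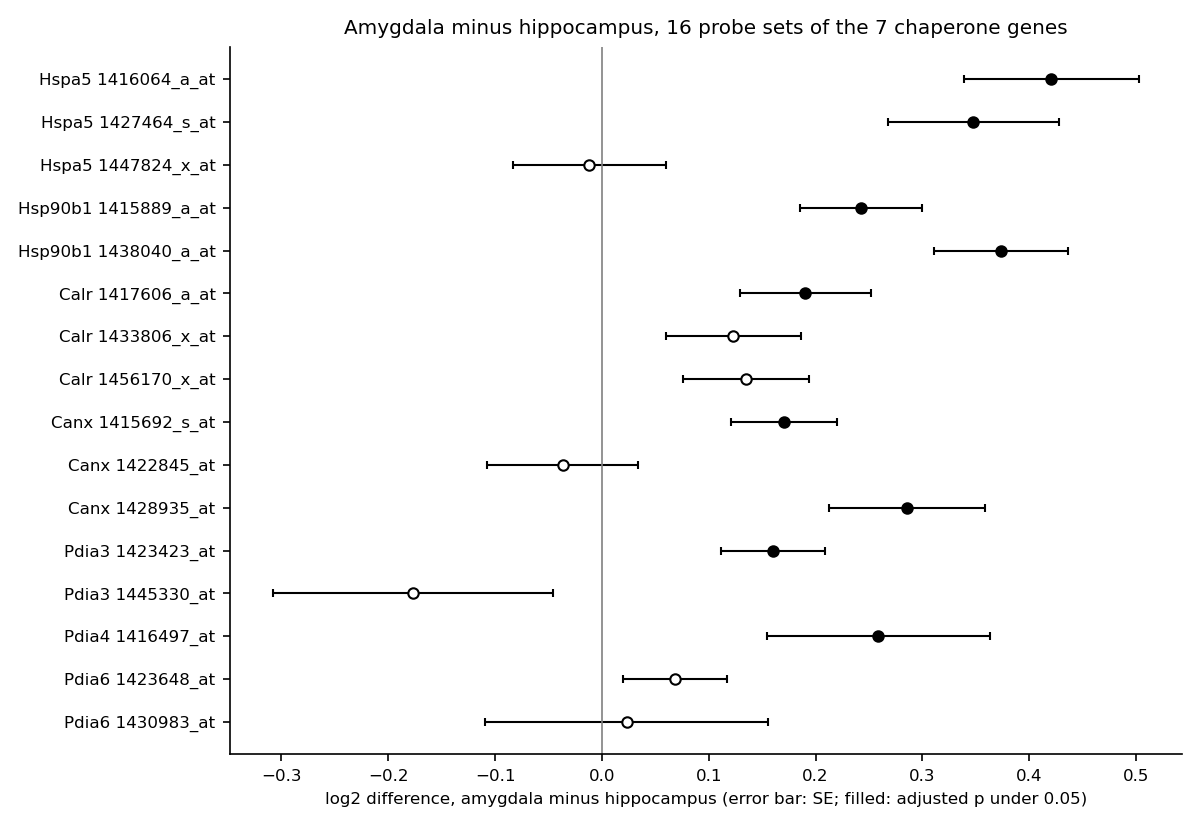
Log2 difference between amygdala and hippocampus (x axis) for the 16 probe sets of the 7 chaperone genes (rows), with standard errors; filled symbols have an adjusted p under 0.05 in limma. All 9 filled points lie to the right of 0, led by Hspa5 1416064_a_at at 0.42 and Hsp90b1 1438040_a_at at 0.37.

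Cell type markers moved with region as well. All 9 oligodendrocyte markers were higher in the amygdala (summed intensity 37133 to 51477 in high freezing and 39273 to 47757 in low freezing amygdala, against 14390.4 to 18588 in high freezing and 14490.1 to 19526 in low freezing hippocampus). Of 8 microglia markers 7 were higher in the amygdala, and all 10 choroid plexus markers were, with the sums given above. Of 8 astrocyte markers 5 were higher and 2 lower in the amygdala, and of 5 endothelial markers 1 was higher and 0 lower. Of 6 markers of the neighbouring hypothalamus and thalamus 4 were higher in the amygdala (median log2 difference 1.96): Avp 6.32-fold, Pmch 5.66-fold, Prkcd 5.55-fold and Tcf7l2 2.72-fold, of which Prkcd is also known from the central amygdala. Summed over the 7 markers of that list, intensity was 924 to 3293 in high freezing and 1254 to 3075 in low freezing amygdala, against 345 to 443 in high freezing and 344 to 395 in low freezing hippocampus. The part of these cells and tissues in the chaperone differences was not tested. With freezing, 7 of 8 astrocyte and 8 of 8 microglia markers had negative averaged differences, of which Gfap (log2 -0.87 ± 0.15, limma adjusted p = 0.00279) and C1qc (-0.40 ± 0.10, adjusted p = 0.0399) passed. Averaged differences were also negative for 7 of 9 oligodendrocyte and 5 of 6 central amygdala and striatum markers, and none of these passed. Of all probe sets, 53.8% had a positive averaged difference. Forebrain excitatory neuron markers had positive averaged differences in 5 of 5 (median 0.22) and choroid plexus markers in 9 of 10 (median 0.07), and none of these passed. Positive averaged differences were also found for 3 of 3 basolateral amygdala, 3 of 5 dentate gyrus, 3 of 5 CA field and 3 of 5 endothelial markers. For the hypothalamus and thalamus they were found for 3 of 6, again with none passing. Summed astrocyte markers were 17460.3 to 20722 in high freezing amygdala, against 19999.7 to 22169 in low freezing amygdala, and 17384 to 18376 in high freezing hippocampus, against 17575 to 20662 in low freezing hippocampus. Summed microglia markers were 3378 to 3932 in high freezing amygdala, against 3451 to 5001 in low freezing amygdala, and 2624 to 3046 in high freezing hippocampus, against 2778 to 3426 in low freezing hippocampus. Their part in the freezing differences of the chaperones was not tested.

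The rest of the compartment's folding machinery was described with 9 further lists, of which 74 of 81 genes were tested at their brightest probe set. Between high and low freezing animals, 0 of the 74 were higher and 2 were lower in the average, where 0.537% of the 12468 genes tested at their brightest probe set were lower, and 0 passed in either region alone or in the interaction. The first was Manf, at 597 to 697 in high freezing amygdala, against 739.6 to 939.8 in low freezing amygdala, with no overlap, and at 501 to 674 in high freezing hippocampus, against 518 to 883 in low freezing hippocampus. It was 1.22-fold lower in high freezing animals (log2 -0.29 ± 0.07, limma adjusted p = 0.0297). The other was B2m, the light chain of MHC class I, whose heavy chain folds with calnexin, calreticulin and Pdia3 (-0.25 ± 0.06, adjusted p = 0.0481). The median averaged log2 difference of the 13 other chaperones and co-chaperones was -0.16, with 10 of 13 below 0, and that of the 11 sensors and transcription factors of the unfolded protein response was -0.02. For the 11 cytosolic heat shock chaperones, which act outside the compartment, it was -0.17, with 1 of 11 called lower (Hsph1, -0.19 ± 0.05, adjusted p = 0.0475).

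Between regions, 37 of the 74 genes were higher in the amygdala and 6 were lower, where 31.7% of the 12468 genes tested at their brightest probe set were higher and 24.6% were lower. Counts of the single lists below stand against that same background. Among other chaperones and co-chaperones 7 of 13 were higher and 0 lower, with Fkbp2, a prolyl isomerase, 1.39-fold higher (limma adjusted p = 6.77e-12), Sil1, the nucleotide exchange factor of Hspa5, 1.49-fold higher (5.58e-06), and Serpinh1, the collagen chaperone, 1.61-fold higher (3.94e-05). Among disulfide isomerases and oxidases 6 of 10 were higher and 0 lower, with Prdx4, a peroxidase, 1.77-fold higher (1.50e-14), P4hb, the classical protein disulfide isomerase, 1.38-fold higher (4.61e-12), and Txndc12 1.32-fold higher (5.13e-07). In the glycan cycle that feeds calnexin and calreticulin 2 of 6 were higher and 0 lower: Uggt1, which marks misfolded glycoproteins for another round, and Prkcsh, a glucosidase subunit. For degradation, 8 of 13 were higher and 1 lower, with Herpud1 1.52-fold, Derl2 1.31-fold and Edem1 1.24-fold higher and Sel1l 1.10-fold lower.

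The sensors and factors of the unfolded protein response were divided by region, with 5 of 11 higher in the amygdala and 2 lower. Creb3l2 was 1.56-fold and Ddit3 1.47-fold higher, whereas Atf6, a sensor cleaved to a transcription factor under stress, was 1.49-fold lower (limma adjusted p = 1.30e-10) and its relative Atf6b 1.33-fold lower. In the translocon and signal peptidase list 4 of 11 were higher and 1 lower, with Sec62 1.30-fold higher. Of 4 calcium genes 2 were higher (Stim1 and Itpr2) and 2 lower (the pump Atp2a2, and Ryr2, a release channel 2.66-fold lower in the amygdala). Kdelr2, which returns escaped chaperones from the Golgi, was higher and was 1 of 2 receptors tested. Tapbp and B2m were higher among 4 genes of peptide loading. The cytosolic heat shock chaperones were divided evenly, with 3 of 11 higher (Hspb1, Bag3 and Dnajb1) and 3 lower (Hsph1, Dnaja1 and Hspa1b).

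**Figure D5:**
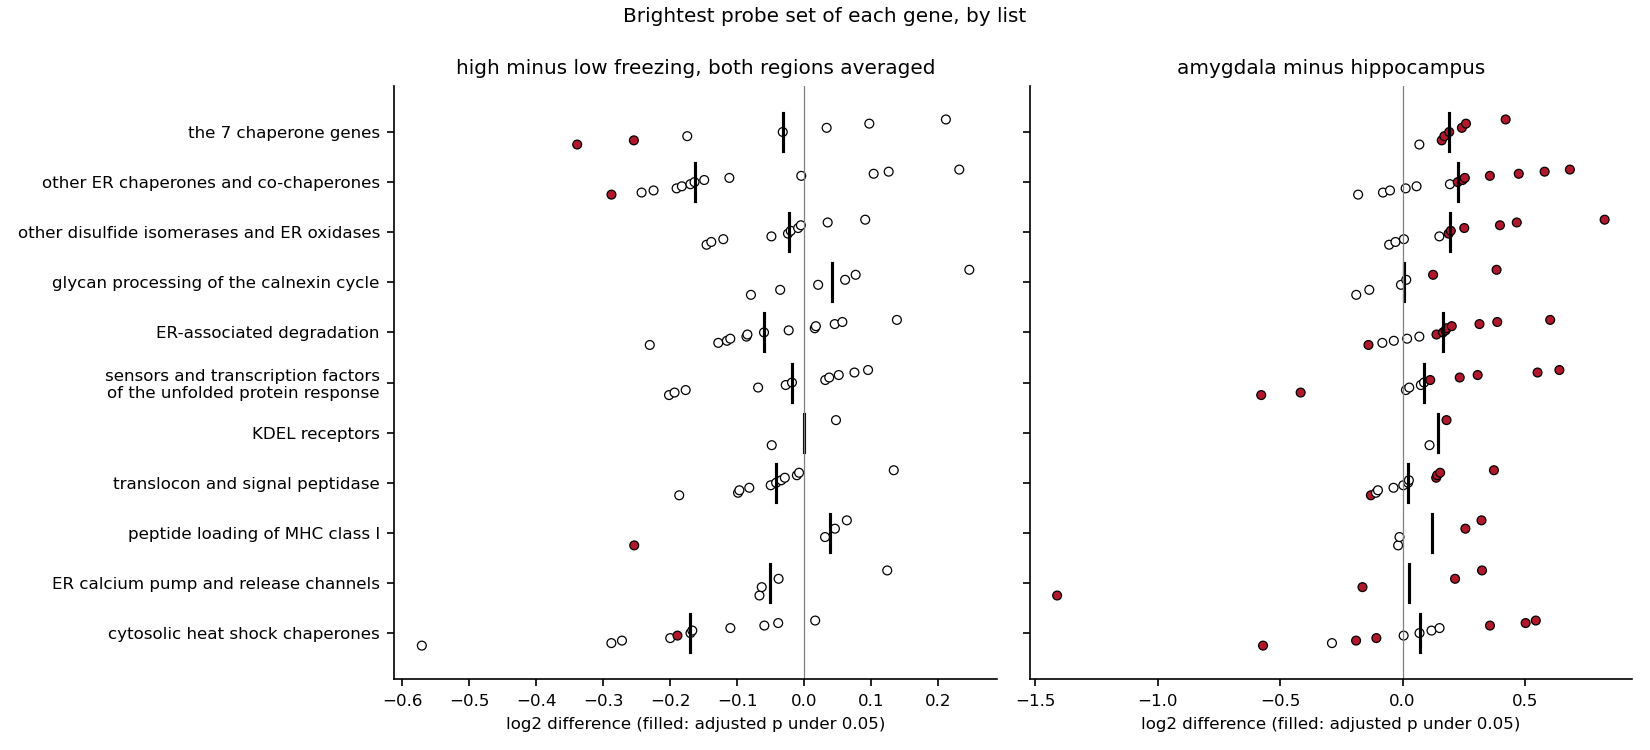
Log2 difference (x axes) at the brightest probe set of each gene for the 7 chaperone genes and 10 further lists (rows), for high minus low freezing averaged over regions (left) and amygdala minus hippocampus (right); each point is a gene, filled points have an adjusted p under 0.05 in limma, and the bars are list medians. On the left 2 of 7 chaperone genes are filled, both below 0, and on the right 6 of 7 are filled, all above 0.

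The promoter element was also looked for in the 9 lists. Of 66 listed genes with a promoter in the table, 5 held it (Creld2, Dnajc3, Ero1b, Derl3 and Syvn1), against 37 of 27025 genes in the whole table. In the list of the unfolded protein response, 0 of 10 genes held it in this window.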

How the data were processed

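Total RNA of 24 samples was measured on 1-colour arrays. The authors deposited 1 table of linear intensity values, with 45101 probe sets on each array, and the sources used here do not name the program behind them. On every array the mean of the deposited intensity values, trimmed by 2% at both ends, came to 150.001. Precision is limited by the number of arrays, since arrays carry no depth of reads.

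The test scale was log2(intensity + 16). The 64 control probe sets and the dimmest 40% by mean log2 value were left out, which kept 27022. Array medians spanned 0.173 on that scale, under the limit of 0.2 above which a normalization would have been applied. limma 3.58.1 (R 4.3.3) fitted 1 mean per group with a trended variance prior and 20 residual degrees of freedom. Two-sided p-values were adjusted by Benjamini-Hochberg over all probe sets kept. The fit was tested on simulated data. Permutation tests used numpy 2.4.6 and Python 3.11.15, and all are two-sided.

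Groups came from the labels. Gene names came from the platform annotation, with 34958 probe sets of 1 symbol, 932 of several and 9211 of none; a gene was tested at its brightest probe set where 1 value per gene is given. Members, lists, tests and alternatives were chosen with earlier results of these data known. All member probe sets are reported, and from each list the counts and up to 3 genes with the smallest p among those passing in a comparison, plus genes of counts of 5 or fewer, named after their values were seen. Promoter sequences are from RefSeq (GRCm38.p6), matched by symbol for 7 of 7 members. Protein sequences were not used here. Alternatives were offsets of 1 and 64, quantile normalization, arrays centred on their median, no filter or the dimmest 60% left out, a variance prior without trend or robust, array weights, each region fitted alone, a replicate block, 1 probe set per gene, and each array left out in turn.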

Additional observations from a re-analysis of the deposited data

Results flagged for a closer look

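In 3 of 64 checks of a probe set in a group of 6 arrays, the lowest array stood apart from the other 5 by Dixon's criterion, about the 1 in 20 that chance gives. In high freezing amygdala, array 11 was the lowest of both Calr _x_at probe sets, with 886 at 1456170_x_at (next lowest 1062) and 672 at 1433806_x_at (next lowest 944). Without that array the amygdala difference of 1433806_x_at was -0.37 on the log2 scale (limma adjusted p = 0.0635) and the call was lost, and the averaged difference was -0.32 (adjusted p = 0.00216). In low freezing hippocampus, array 6 was the lowest of Pdia4 1416497_at, with 83.4 (next lowest 115).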

How the results depend on the processing

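The calls of 2 Calr probe sets and of Pdia6 1423648_at in the averaged freezing comparison held in every setting run. The number of member probe sets called in the amygdala (1 as reported) was 2 with arrays centred on their median, 0 without a variance trend, 0 with the region fitted alone and 0 with 1 probe set per gene, and 0 to 3 with single arrays left out. The averaged count (5) was 3 without the filter, 3 without a variance trend, 2 with 1 probe set per gene, and 3 to 6 with single arrays left out. The regional count (9) was 5 with centring and 8 to 11 with single arrays left out. The hippocampal and interaction counts were 0 throughout. Relations passing between members (0) were 1 with quantile normalization and 2 with the values themselves in place of deviations. Over all probe sets, centring gave 112 higher and 667 lower in the averaged comparison (146 and 138 as reported), 5584 and 8605 between regions (7310 and 6522), 8 and 14 in the amygdala (10 and 5) and 7 and 8 in the hippocampus (12 and 2); quantile normalization gave 11 and 10 in the amygdala, 10 and 3 in the hippocampus and 6670 and 7326 between regions. Centring subtracts the median log2 value of an array from all its values. Array medians had a median of 42.8 in high and 40.8 in low freezing amygdala, and 40.5 in high and 37.9 in low freezing hippocampus. With centring, the median log2 difference of all probe sets was -0.038 in the average (0.011 as reported) and -0.059 between regions (0.016 as reported). What set the array medians of the groups apart was not tested.

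Signs of 8 uncalled differences turned in another setting. With quantile normalization, in the amygdala, Hsp90b1 1415889_a_at was 0.0079 and 1438040_a_at 0.00327 (0.0101 with array weights), and Pdia6 1430983_at was -0.0454 between regions. With centring, Canx 1415692_s_at was -0.0265 in the amygdala, Canx 1422845_at -0.00991 and 1428935_at -0.0179 in the hippocampus, Pdia3 1423423_at -0.0158 in the average, and Pdia6 1423648_at -0.00662 and 1430983_at -0.0519 between regions. With single arrays left out, ranges crossed 0 in the amygdala for Hsp90b1 1415889_a_at (-0.0585 to 0.0319), 1438040_a_at (-0.0570 to 0.0381) and Canx 1415692_s_at (-0.0149 to 0.0518). They crossed 0 in the hippocampus for Hspa5 1427464_s_at (-0.148 to 0.00939), Canx 1428935_at (-0.0127 to 0.0732), Pdia3 1423423_at (-0.0480 to 0.0341) and Pdia4 1416497_at (-0.0998 to 0.0249). Between regions they did so for Hspa5 1447824_x_at (-0.0459 to 0.0105), Canx 1422845_at (-0.0655 to 0.0177) and Pdia6 1430983_at (-0.0460 to 0.0712), and in the interaction for Pdia6 1423648_at (-0.0580 to 0.0305) and 1430983_at (-0.0119 to 0.222). Of all single differences recomputed, 2695 kept sign and side of the threshold, 59 lost and 14 gained the call, and 46 changed sign.

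Replicate numbers run through both regions, and the labels do not say whether a number stands for the same animal. Deviations of same-numbered arrays from their group means correlated from -0.08 to 0.09 over the 12 pairs, and 0 of 12 exceeded 0.1. Deviations in different tissues of an animal need not correlate, so these values cannot exclude shared animals. The main fit did not take the numbers as pairs. With the replicate block as a random effect the counts were 1 in the amygdala, 0 in the hippocampus, 5 in the average, 9 between regions and 0 in the interaction, and with a fixed block 9 between regions.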
